A study of Mus musculus with 5 samples.

Results

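The cells described here are γδ T cells sorted for the Vγ6 T cell receptor chain in which at least 1 transcript of Cd163l1 was counted, taken from the thymus and from peripheral lymph nodes (pLN). Cd163l1 encodes a scavenger receptor (SCART1) that is typical of IL-17-type γδ T cells. In each of the 2 libraries, droplet barcodes with at least 200 detected genes and at most 10% of their transcripts from mitochondrial genes were kept. The members were then selected on a measured value, the Cd163l1 count of each barcode, which had to be at least 1 UMI. A UMI (unique molecular identifier) marks a single captured transcript. This gave 881 of 2517 thymus cells and 1217 of 1458 lymph node cells, together 2098 of the 7846 cells kept in all 5 libraries of the series. The question was how Vγ6 cells that share a Cd163l1 transcript differ between thymus and a peripheral organ.

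Vγ6 cells arise in the thymus around birth, leave it in a wave, and persist in skin, mucosa and lymph nodes, where they make IL-17 early in infection and inflammation. Their programme rests on transcription factors such as c-Maf (Maf), on the receptors for IL-23, IL-1 and IL-7, and on homing receptors such as CXCR6 and CCR6. The adult thymus holds γδ cells of several kinds, among them immature cells marked by CD24 and long-lived IL-17-type cells. Cells in an organ can differ from those of another organ through their developmental stage, through recent signals, or through the handling of the tissue.

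Both libraries came from C57BL/6 mice of 8 weeks, and the source labels name no transgene in them. The lymph nodes were the superficial cervical, axillary, brachial and inguinal ones, passed through nylon mesh, with no incubation stated. Thymus cells were passed through the same mesh, treated at 37 °C for 30 minutes with antibodies to CD4 and CD8β plus complement to lyse αβ lineage cells, and recovered on a density gradient. Ear skin Vγ6 cells, given below as values only, came from C57BL/6 mice of 8 weeks after 75 minutes of collagenase at 37 °C. A pooled Vγ6 library, also given as values only, mixed lymph node of TcrdCreER, thymus of ACT-FLPe and ear skin of TcrdH2BeGFP animals of 8 to 10 weeks, with no map from cells to tissues. The number of mice behind each library was not given, and each group was a single library, so organ, preparation, sort and library cannot be told apart anywhere below and no test between organs was possible.

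The chosen thymus cells held 2421435 UMIs and the chosen lymph node cells 3763262, with medians of 2292 and 1927 UMIs and of 1083 and 1013 genes per cell. Levels are given as CPM, UMIs of a gene per 1000000 summed UMIs of the chosen cells without those of Cd163l1. At that depth 1 UMI was worth 0.413 CPM in thymus and 0.266 CPM in lymph node. Ratios carry exact conditional binomial 95% intervals in parentheses, and levels and shares carry exact Poisson and Clopper-Pearson intervals. They cover counting error alone and hold no spread between animals or preparations. Thymus and lymph node shared 4 of the chosen barcodes.

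Summed over their cells, both sets held transcripts of the T17-type γδ programme. All 11 genes of the γδ T17 marker list that the matrices hold were detected in both, with summed levels of 6074 CPM in thymus and 7758 CPM in lymph node, and with 3 of the 11 called lower in thymus by the rule given below. Cells with no Cd163l1 UMI had 4175 CPM in thymus and 9195 CPM in lymph node, so this sum does not set the chosen cells apart. The CD3 chain gene Cd3g stood at 2212 and 2170 CPM. Receptor segment genes are not analysed here, so the Vγ6 label itself was not checked. Of the lymph node cells, 99.2% had at least 2 UMIs summed over 8 genes of this programme, among them Blk, Maf, Il23r, Il17re, Cd44, Cxcr6 and Il7r, against 76.0% of the thymus cells. The remaining thymus cells had 0 or 1 such UMI, and the levels by Cd163l1 count below show how the thymus cells vary. Cd163l1 itself chose the cells, and its level among them was 777 CPM (742 to 813) in thymus and 843 CPM (814 to 872) in lymph node.

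The choice took 35.0% (33.1 to 36.9) of the thymus cells and 83.5% (81.5 to 85.3) of the lymph node cells. After each cell was thinned to 1000 UMIs, leaving out 75 shallower thymus cells and none from lymph node, the shares were 22.2% and 59.4%. Thymus cells with no UMI of these 8 genes still had a Cd163l1 UMI in 13.5% (11.1 to 16.3) of 710 cells, at 71.9 CPM and a median depth of 1949 UMIs. Thymus cells with 5 or more UMIs of them had a Cd163l1 UMI in 81.5% (77.8 to 84.8) of 498 cells, at 813 CPM and a median depth of 2324.5 UMIs. Thymus cells with at least 3 UMIs of the granzyme gene Gzma lay between, at 27.1% (22.3 to 32.2) and 93.3 CPM, with a median depth of 3161 UMIs. The share of free RNA among single Cd163l1 UMIs was not measured. Of the chosen cells, 423 in thymus and 374 in lymph node held exactly 1 Cd163l1 UMI, and 150 and 281 held 4 or more.

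A gene was called higher or lower in thymus when 3 conditions held: a ratio of 2-fold or more, an interval that left out 1, and 20 CPM or more in whichever library was higher. Of 5632 genes at or above 20 CPM in either library, 630 were called higher (11.2%) and 597 lower (10.6%), and the median log2 ratio over all of them was -0.15. Genes were ranked by the interval bound nearest to 1 among those that the higher library held in 20% or more of its cells and at 100 CPM or more, leaving out markers of other cell types. The 12 highest by that rule included the immature thymocyte and granzyme genes Cd28, Cd24a, Sox4, Gzma, Ccr9 and Plac8. They also included the signal-linked genes Crem, Fosl2 and Ramp3, the endosomal sorting gene Vps37b and the heat shock gene Hspa1a. The 12 lowest included the surface gene Cd48, Maf, Itgb1, Lgals3, Bcl2a1a, and the division and histone genes Mki67, Hist1h1b and Hist1h1e. Some genes counted in fewer cells also had ratios far from 1 in either direction, among them Nrgn, Il22 and Hspb1 above and Sox13 and Podnl1 below. The scatter of thymus against lymph node levels shows these genes against all others.

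**Figure D1:**
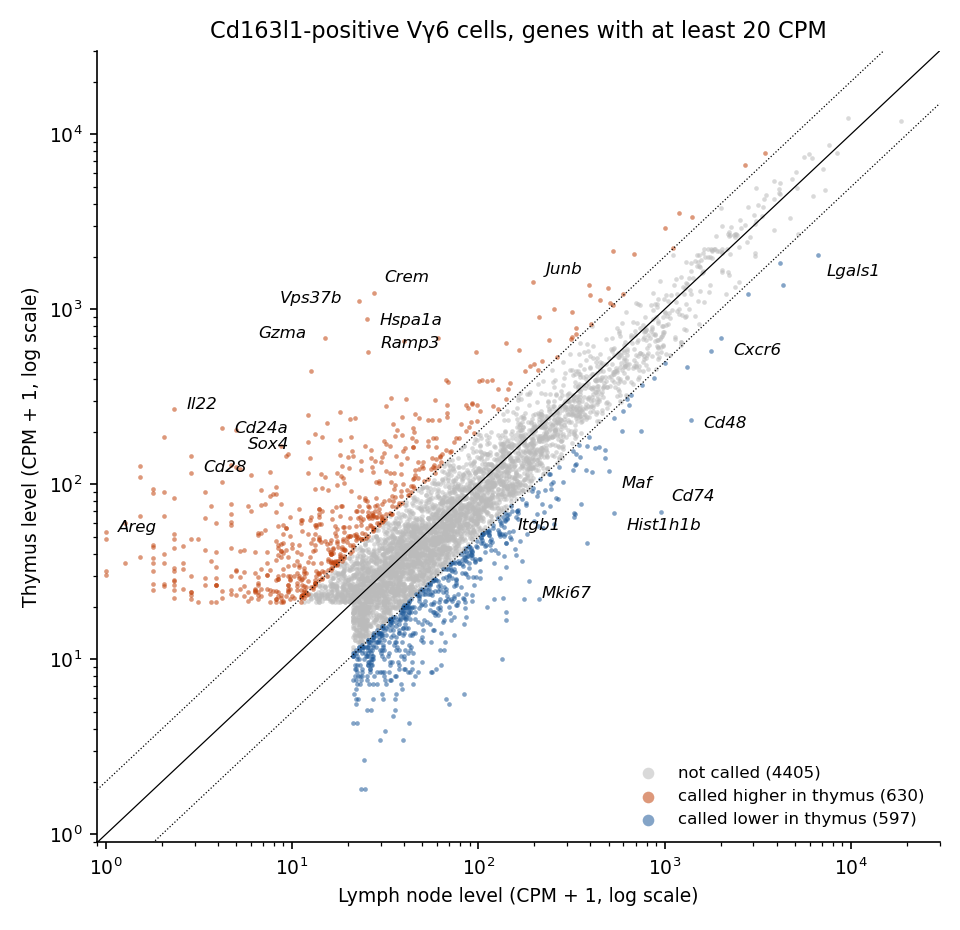
Level of each of 5632 genes in Cd163l1-positive Vγ6 cells of lymph node (x axis) and thymus (y axis), in CPM plus 1 on log axes. The solid line marks equal levels and the dotted lines 2-fold; 630 genes are called higher in thymus (orange) and 597 lower (blue), with Crem, Vps37b and Gzma farthest above the line at high thymus levels and Cd74, Hist1h1b and Cd48 far below it.

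Genes of immature thymocytes had the highest median ratio of the 27 gene lists. These lists were chosen with earlier results of these data known, so their counts and medians, here and below, are a description. Of 23 measured members of the thymocyte maturation list, 20 were called higher and none lower, with a median log2 ratio of 3.67, beside 11.2% higher and a median of -0.15 over all measured genes. Cd24a, the heat-stable antigen carried by immature thymocytes, stood at 207 CPM in thymus and 3.19 CPM in lymph node, 65.0-fold higher (36.9 to 127). Sox4, a transcription factor needed for the development of IL-17-type γδ cells in the thymus, stood at 203 CPM against 3.99 CPM, 51.0-fold higher (30.6 to 91.8). The costimulatory receptor gene Cd28 was at 145 CPM against 1.86 CPM, 77.7-fold higher (37.3 to 195). The lymph node levels of these genes rested on 7 to 15 UMIs each.

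The thymus homing receptor gene Ccr9 was 31.4-fold higher (18.7 to 56.8), at 125 against 3.99 CPM. Nrgn, which encodes the calmodulin-binding protein neurogranin, was at 127 against 0.532 CPM, 239-fold higher (65.5 to 1979). Izumo1r, which encodes folate receptor 4, was at 92.6 against 0.798 CPM, 116-fold higher (39.2 to 567). These last ratios rest on 2 and 3 lymph node UMIs. The 3 measured members that were not called were the chromatin gene Tox, at 131 against 89.6 CPM, Bcl11b, a factor of T lineage commitment that mature T cells also express, at 201 against 315 CPM, and Nrp1, at 21.5 against 39.9 CPM.

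Neighbouring lists held part of the same genes, and the shares over all measured genes were again 11.2% higher and 10.6% lower. Of 10 measured PLZF-type genes, which mark innate-like γδ and NKT cells, 6 were called higher and 1 lower (median 2.22). Plac8 was at 442 against 11.7 CPM, 37.8-fold higher (28.0 to 52.3), Sh2d1a, the adaptor of SLAM receptors, at 148 against 8.51 CPM, and the inhibitor gene Id3, a target of T cell receptor signals, at 84.7 against 6.65 CPM. Zbtb16, which encodes PLZF itself, was at 23.6 against 30.3 CPM, a ratio of 0.777 (0.555 to 1.08) that was not called. Of 11 measured cytotoxic and type 1 genes, 8 were called higher and none lower (median 2.22). Gzma, which encodes the protease granzyme A, was at 688 CPM against 14.1 CPM, 48.8-fold higher (37.1 to 65.5). The gene (ENSMUSG00000023132) lies on the minus strand of mm10 at chr13:113093825-113100981. Its transcripts lay in 36.0% of the thymus cells, and the 10 cells with the most held 38.7% of them. Nkg7, a granule membrane gene, was at 251 against 44.9 CPM, Ctla2a, a cathepsin inhibitor gene, at 121 against 4.26 CPM and the protease gene Ctsw at 95.1 against 7.18 CPM. Ifng, at 3.72 CPM against 0 UMIs, and Prf1, at 2.07 against 2.13 CPM, stayed under 20 CPM in both organs.

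Markers of other cell types that a thymus sort could hold were counted beside these. The αβ T cell and thymocyte markers summed to 71.1 CPM in thymus and 13.3 CPM in lymph node, with Cd8b1 at 32.7 CPM, Cd4 at 11.2 CPM and Rag1 at 2.07 CPM in thymus and Foxp3 at 0. Outside that sum, the thymocyte maturation genes Dntt, called higher, and Themis were at 59.1 against 2.93 CPM and 15.3 against 1.60 CPM. NK cell markers summed to 68.6 and 30.9 CPM, of which Gzmb gave 59.1 and 27.7 CPM, while Ncr1 and Klrb1c were at 0.413 CPM each in thymus. Thymic epithelium markers summed to 16.9 and 3.19 CPM, with Foxn1, Aire and Cldn4 at 0 in both. Mast cell and basophil markers summed to 2.89 and 0.266 CPM with 7 of 8 at 0 in each library, and neutrophil markers to 0.413 and 0 CPM with 6 and 7 of 7 at 0. Cpa3, a protease gene known from mast cells and also from immature γδ thymocytes and named here after its value was seen, was at 110 CPM against 0.532 CPM.

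Within the thymus cells these genes did not lie evenly. In cells with 1 Cd163l1 UMI, Gzma stood at 1039.5 CPM (984 to 1098), then at 550 CPM (485 to 620) with 2 UMIs, 200 CPM (151 to 259) with 3, and 106 CPM (76.8 to 143) with 4 or more. In lymph node cells it was at 26.4, 17.2, 13.1 and 5.13 CPM in the same order. Thymus levels therefore lay 9.79-fold apart between the ends. Lymph node levels were low at every count and fell as well, to 0.194 of the level at 1 UMI, on 22 and 7 Gzma UMIs. At 4 or more Cd163l1 UMIs Gzma was still 20.7-fold higher (9.23 to 54.5) in thymus. Of the thymus cells, 44.4% had a Gzma UMI at 1 Cd163l1 UMI and 24.7% at 4 or more. Just outside the choice, thymus cells with no Cd163l1 UMI had Gzma at 698 CPM (673 to 724), below the cells with 1.

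Immature genes and the granule gene Nkg7 were also lower in the chosen thymus cells with the most Cd163l1. Unlike Gzma, Cd24a (319 CPM), Sox4 (345 CPM), Cd28 (286 CPM) and Plac8 (768 CPM) were higher in thymus cells with none than with 1. From 1 to 4 or more Cd163l1 UMIs, Cd24a went from 285 to 66.6 CPM, Sox4 from 284 to 69.1 CPM, Cd28 from 216 to 39.5 CPM, Plac8 from 624 to 136 CPM, Sh2d1a from 203 to 24.7 CPM, Lef1 from 252 to 64.2 CPM and Nkg7 from 368 to 76.5 CPM. Lymph node levels of these genes were low and fell as well, so the fall was not seen in thymus alone. There, Cd24a, Sox4 and Cd28 went from 8, 7 and 4 UMIs to none. Plac8 went from 20.4 to 8.06 CPM, Sh2d1a from 9.61 to 5.86 CPM, Lef1 from 15.6 to 13.2 CPM and Nkg7 from 50.4 to 33.7 CPM. The lymph node intervals at the ends overlapped for Cd28, Plac8, Sh2d1a, Lef1 and Nkg7. Among cells with 4 or more, the same 23 thymocyte genes had a median log2 ratio of 2.57. Of these, 16 reached 20 CPM in either organ there, with a median of 3.67, and 12 of the 16 were called higher and none lower, beside 12.1% called higher over all 5603 genes measured there. Gene and count shared cells and depth, and median depths of these thymus cells were 2317 and 2493 UMIs. In the chosen thymus cells, 45.1% of 317 cells with a Gzma UMI also had one of Cd24a, against 20.9% of the cells without, at median depths of 2644 and 2112 UMIs.

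**Figure D2:**
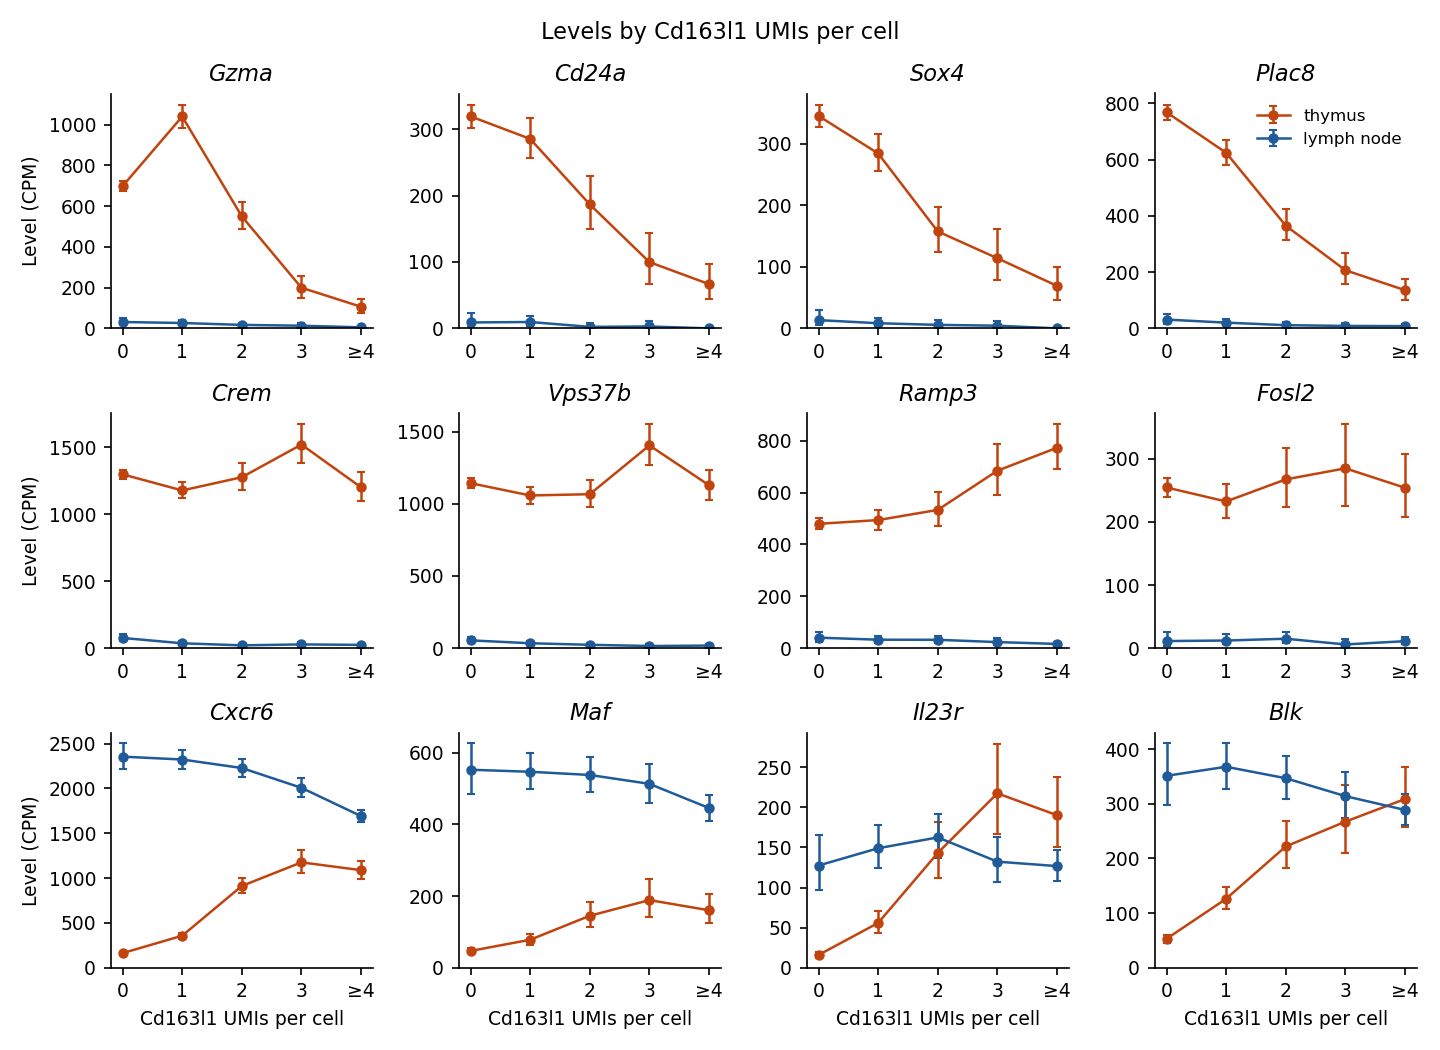
Levels (y axis, CPM) of 12 genes in thymus (orange) and lymph node (blue) by the number of Cd163l1 UMIs per cell (x axis, from 0 to 4 or more), with exact Poisson 95% intervals. Thymus levels of Gzma, Cd24a, Sox4 and Plac8 drop from 1 UMI on, those of Crem, Vps37b and Fosl2 stay near their own level, and those of Ramp3, Cxcr6, Maf, Il23r and Blk are higher at high counts, while Cd163l1 itself set the x axis.

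Genes of the list of cAMP and G-protein brakes were also higher in thymus. Of this list, Crem and Vps37b kept near 1 level across the Cd163l1 counts. Crem encodes a cAMP-responsive modulator whose short form ICER dampens transcription after a cAMP signal. It was counted in 88.2% of thymus cells and 6.16% of lymph node cells, at 1242 against 26.6 CPM, 46.7-fold higher (38.3 to 57.6). Thinned to 1000 UMIs per cell, the shares with a Crem UMI were 66.3% and 2.96%. By Cd163l1 count, thymus Crem was at 1179, 1277, 1521 and 1202 CPM, and 1299 CPM in cells with none. Lymph node Crem was between 20.6 and 36.0 CPM in the chosen cells and 76.0 CPM in cells with none.

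Vps37b, which this list also holds, encodes an ESCRT-I subunit of endosomal sorting rather than a part of cAMP or G-protein signalling. Vps37b was likewise at 1111 against 21.8 CPM, 50.9-fold higher (40.9 to 64.3), and at 1057, 1066, 1404 and 1128 CPM by Cd163l1 count in thymus. Ramp3, a partner of receptors for adrenomedullin and calcitonin gene-related peptide (CGRP), was at 570 against 24.7 CPM, 23.1-fold higher (18.7 to 28.8), and its partner family member Ramp1 at 350 against 127 CPM. Calca, which encodes CGRP and calcitonin and is named here after its value was seen, was at 185 CPM in thymus and 1.06 CPM (4 UMIs) in lymph node, 174-fold higher (67.4 to 640). It lay in 19.9% of thymus cells, in 13.7% of those with 1 Cd163l1 UMI and in 35.3% of those with 4 or more. Of the 15 measured genes of the list of cAMP and G-protein brakes, 11 were called higher, Vps37b among them, and none lower (median 1.80). Over all measured genes the shares were 11.2% and 10.6%. The listed genes called higher included Rgs2, a brake on G-protein signals, at 658 against 38.8 CPM. The phosphodiesterase gene Pde4d was another, at 47.9 against 1.33 CPM. From 1 to 4 or more Cd163l1 UMIs, thymus Rgs2 went from 722 to 417 CPM and Pde4d from 67.1 to 29.6 CPM, while Ramp3 went from 494 to 773 CPM and Calca from 83.1 to 316 CPM. Rgs1 (316 against 162 CPM), Prkar1a (672 against 482 CPM), Gpr183 (132 against 149 CPM) and Gpr65 (64.1 against 43.6 CPM) were not called.

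Immediate early genes, which need no new protein to be transcribed after a signal, were higher as a group. Of 25 measured, 20 were called higher and none lower, beside 11.2% and 10.6% over all measured genes. The median log2 ratio of the list was 2.04 in all chosen cells and 2.49 in those with 4 or more Cd163l1 UMIs. The AP-1 gene Junb was at 1427 against 196 CPM, 7.27-fold higher (6.71 to 7.88), and Fosl2, another AP-1 subunit, at 249 against 11.2 CPM, 22.3-fold higher (16.3 to 31.3). Fos was at 183 against 42.8 CPM, 4.28-fold higher (3.56 to 5.15). The orphan nuclear receptor genes Nr4a1 and Nr4a2, early targets of antigen receptor signals, were at 43.0 against 0.798 CPM and 89.7 against 2.39 CPM. Atf3, a stress-response factor gene, was at 50.8 against 1.33 CPM. Junb was higher in thymus cells with more Cd163l1, at 1007 CPM with 1 UMI and 1903 CPM with 4 or more, while Nr4a1 was at 36.8 and 32.1 CPM. Cd69, often read with these genes as an activation marker, was at 97.1 against 142 CPM, a ratio of 0.684 (0.584 to 0.799) below the 2-fold limit, and Klf6 (100 against 77.1 CPM), Ier5, Btg2 and Zfp36l1 were not called either. Myc, a listed gene under the 20 CPM limit, ran the other way at 3.72 against 18.4 CPM, a ratio of 0.203 (0.0890 to 0.408).

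NF-κB target genes and feedback genes showed the same direction, where 11.2% of all measured genes were called higher and 10.6% lower. Of 16 measured NF-κB targets, 12 were called higher and none lower (median 1.84), with Nfkbia, the inhibitor that NF-κB switches on against itself, at 389 against 111 CPM, the editing enzyme gene Tnfaip3 (A20) at 76.0 against 7.71 CPM and the subunit gene Relb at 55.4 against 8.24 CPM. Nfkb1 was at 126 and 127 CPM. Of 19 measured genes of mRNA decay and growth feedback, 13 were called higher and none lower (median 1.85). Among them, the MAP kinase phosphatase genes Dusp5 and Dusp10 were at 238 against 20.7 CPM and 143 against 8.24 CPM, the cytokine brake Socs3 at 57.9 against 3.72 CPM and the antiproliferative gene Tob2 at 101 against 18.1 CPM. Cebpb, a transcription factor gene outside the lists and named after its value was seen, was at 682 against 60.1 CPM, and Cdkn1a, which encodes the cell cycle inhibitor p21, at 174 against 11.2 CPM.

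Heat shock genes were higher in smaller number. Of 17 measured, 9 were called higher and none lower (median 1.01), beside 11.2% and 10.6% over all measured genes. Hspa1a, an inducible HSP70 gene, was at 877 CPM in 47.2% of thymus cells against 24.2 CPM in 5.83% of lymph node cells, 36.2-fold higher (29.4 to 45.2). Its near-identical neighbour Hspa1b was at 74.4 against 17.3 CPM, and the counting can split reads of this pair unevenly. Hspb1, which encodes the small chaperone HSP27, was at 59.5 CPM against 1 UMI in lymph node, 224-fold higher (39.5 to 8899.5). Constitutive chaperones were closer to level. Hspa8 was still called higher, at 3364 against 1409.5 CPM, a ratio of 2.39 (2.31 to 2.47). Hspd1 at 575 against 389 CPM and Cacybp at 252 against 323 CPM were not called. Hspa1a was at 517 CPM in thymus cells with 1 Cd163l1 UMI and 1234 CPM in those with 4 or more, and at 335 CPM in those with none. Hspb1 ran the other way, at 71.9, 39.5 and 111 CPM. The thymus cells alone of these 2 libraries had a stated step at 37 °C, and its part in these groups was not tested.

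Heat shock factor binds repeats of the letters GAA and its complement, so the promoters of the heat shock genes are shown here with the heat shock element GAANNTTC in capitals, beside that of the growth factor gene Areg with the cAMP response element TGACGTCA in capitals. Each sequence is the 250 bases before the annotated start in RefSeq (GRCm38.p6, the NCBI name of the mm10 build), written 5′ to 3′ on the gene's own strand. Both motifs read the same on the opposite strand, and neither overlaps the other in letters.
Hspa1a, chr17:34972157-34972406, minus strand: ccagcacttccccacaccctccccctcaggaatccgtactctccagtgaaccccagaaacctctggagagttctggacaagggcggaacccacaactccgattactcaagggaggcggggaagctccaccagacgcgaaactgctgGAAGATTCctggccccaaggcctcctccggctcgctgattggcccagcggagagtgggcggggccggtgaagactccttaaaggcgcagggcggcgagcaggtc
Hspa1b, chr17:34959239-34959488, minus strand: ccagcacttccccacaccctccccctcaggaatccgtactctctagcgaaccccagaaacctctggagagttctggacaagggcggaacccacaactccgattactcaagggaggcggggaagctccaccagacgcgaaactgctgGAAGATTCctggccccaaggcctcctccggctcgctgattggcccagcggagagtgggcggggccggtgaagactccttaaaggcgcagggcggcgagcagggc
Hspb1, chr5:135887669-135887918, plus strand: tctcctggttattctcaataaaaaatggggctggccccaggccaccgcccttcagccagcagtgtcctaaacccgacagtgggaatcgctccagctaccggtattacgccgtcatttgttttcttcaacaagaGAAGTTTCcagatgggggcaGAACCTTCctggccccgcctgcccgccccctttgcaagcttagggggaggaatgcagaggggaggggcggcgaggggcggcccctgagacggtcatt
Areg, chr5:91139349-91139598, plus strand: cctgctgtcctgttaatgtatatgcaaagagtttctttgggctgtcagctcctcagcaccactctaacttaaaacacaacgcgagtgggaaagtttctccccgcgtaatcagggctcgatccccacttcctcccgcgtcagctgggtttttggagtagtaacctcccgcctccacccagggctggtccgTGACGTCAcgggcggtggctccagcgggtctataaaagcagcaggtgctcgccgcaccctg

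The heat shock element began 104 bases before the start in both Hspa1a and Hspa1b, whose windows agreed at 247 of 250 positions, and Hspb1 held 2 of them. Of the 9 heat shock genes called higher, 7 had a promoter in the table and 5 of these held the element (Hspa1a, Hspa1b, Hspb1, Hspe1 and Dnaja1), against 7.73% of all 27025 genes in the table, 6.16% of the measured genes that matched and 6.30% of the genes called higher. As a share of promoters this was 6.69% of all 32851. The cAMP response element stood 61 bases before the start of Areg, the only gene with it among the 67 named higher genes that matched. Over the whole table it was in 1.77% of genes, in 3.61% of measured genes, and in 4.67% of genes called higher and 1.35% of genes called lower. A match describes these letters in this window and nothing about binding. Heat shock genes that were not called were not counted for the element, so its share among those called cannot be tied to the call.

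Cytokine genes of the T17 type were higher in thymus. Il22, which encodes a cytokine acting on epithelium, was at 269 CPM in thymus and 1.33 CPM (5 UMIs) in lymph node, 203-fold higher (86.4 to 626). The gene lies on the plus strand of mm10 at chr10:118204942-118210047. It was counted in 13.6% of thymus cells and 0.329% of lymph node cells, and the 10 thymus cells with the most held 47.9% of its UMIs. By Cd163l1 count, thymus Il22 was at 113, 166, 877 and 457 CPM, and at 27.2 CPM in cells with none. Il17a was at 61.2 against 10.1 CPM, 6.05-fold higher (4.21 to 8.89), and Il17f at 25.2 against 1.06 CPM, 23.7-fold higher (8.80 to 89.8). Areg, which encodes the repair factor amphiregulin, was at 52.5 CPM against no UMI in lymph node, at least 65.8-fold higher when lymph node is set at 3 counts over the group. The exact interval of that ratio, which also holds the counting error of thymus, has a lower end of 52.7. The cytokine genes Csf2 (2.89 against 5.58 CPM), Tnf (18.2 against 10.1 CPM) and Tnfsf14 (11.6 against 22.1 CPM) were not called. Of 120 thymus cells with an Il22 UMI, 24 also had one of Il17a, against 9.07% of the others, at median depths of 2526 and 2239 UMIs.

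The rest of the IL-17 programme was divided. Of 31 measured members, 4 were called higher (Il17a, Il17f, Il22 and Ramp1) and 10 lower, with a median log2 ratio of -0.40. The shares over all measured genes were 11.2% and 10.6%. Maf was at 118 CPM in thymus and 502 CPM in lymph node, 4.24-fold lower (3.75 to 4.82). Sox13, an early factor of this lineage, was at 3.72 against 34.0 CPM, and the leukotriene receptor gene Ltb4r1 at 83.1 against 259 CPM. The kinase gene Blk was at 192 against 324 CPM, a ratio of 0.593 (0.532 to 0.660) that was not called, nor were Il23r (114 against 141 CPM), Il7r (439 against 529 CPM) and Il1r1 (42.6 against 37.8 CPM). The related scavenger receptor gene 5830411N06Rik (SCART2) was at 16.1 against 1.33 CPM, under the 20 CPM limit. Without cells with 2 markers of another cell type, 3 of the 31 programme genes were higher and 14 lower (median -0.88). Leaving out the dividing cells defined below, the counts were 3 and 11 (median -0.84).

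The direction of this list followed the Cd163l1 count. In cells with 1 Cd163l1 UMI, 2 IL-17 programme genes were called higher and 21 lower (median -1.43), beside 11.5% higher and 11.8% lower over all genes measured there, and in cells with 4 or more UMIs 6 were higher and 5 lower (median 0.19), beside 12.1% and 15.3%. In cells with no Cd163l1 UMI the median was -2.71. Blk in thymus went from 126 CPM at 1 UMI to 309 CPM at 4 or more, where lymph node had 289 CPM, and Il23r from 55.9 to 190 CPM. Maf went from 78.3 to 160 CPM, against 445 CPM in lymph node cells with 4 or more. It stayed called lower there, at 0.360 (0.275 to 0.466) of the lymph node level. Genes and Cd163l1 were counted in the same cells here, so these levels are a description.

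**Figure D3:**
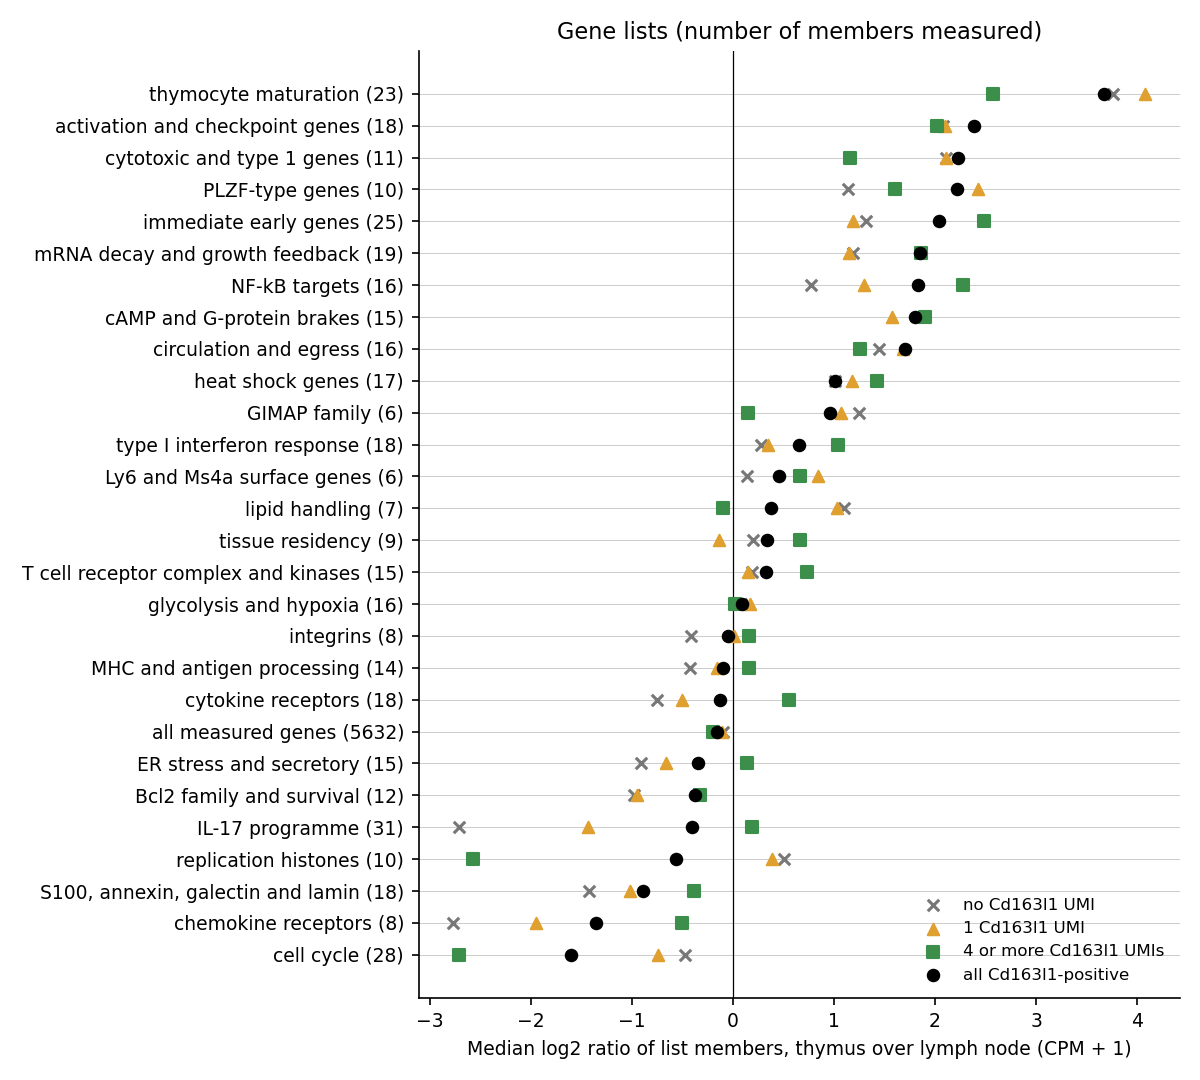
Median log2 ratio of thymus over lymph node (x axis, CPM plus 1) of the measured members of each gene list (y axis, number measured in parentheses) in all Cd163l1-positive cells (black), in cells with 1 (triangles) or 4 or more (squares) Cd163l1 UMIs, and in cells with none (crosses). The IL-17 programme runs from -2.71 with no UMI to 0.19 with 4 or more, thymocyte maturation lies right of 2.5 in all 4 sets, and cell cycle moves left from -0.47 to -2.71.

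Homing and residency genes followed no single direction, and over all measured genes 11.2% were called higher and 10.6% lower. Cxcr6, a receptor that keeps T17-type cells in tissue, was in 98.1% of lymph node cells and 65.2% of thymus cells, at 2013 against 686 CPM, 2.94-fold lower in thymus (2.78 to 3.10). In thymus cells it went from 358 CPM with 1 Cd163l1 UMI to 1089 CPM with 4 or more, where lymph node had 1691 CPM and the call ended at a ratio of 0.644 (0.580 to 0.713). Ccr6 was at 20.7 against 66.2 CPM, 3.20-fold lower (2.36 to 4.43), and its call ended there too, at 34.6 against 62.3 CPM. Klf2, the factor that drives exit genes, was at 370 against 755 CPM, 2.04-fold lower (1.89 to 2.20), just past the limit, and with TMM factors its ratio of 0.513 was inside it. S1pr1, the exit receptor that KLF2 drives, was at 134 against 94.1 CPM, a ratio of 1.43 (1.22 to 1.66) that was not called. Of 16 measured genes of circulation and egress, 9 were called higher and 1 lower (median 1.70), among them the naive-type factor genes Lef1 at 185 against 13.6 CPM and Satb1 at 194 against 12.2 CPM and the costimulatory receptor gene Cd27 at 310 against 33.0 CPM. Of 9 measured residency genes, 3 were higher and 2 lower (median 0.34), with Bhlhe40 at 76.5 against 6.12 CPM. Of 8 chemokine receptor genes, Ccr9 and Ccr7 were higher and 5 lower (median -1.35).

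Activation genes were mostly higher in thymus, and cytokine receptor and T cell receptor genes mostly were not called. Over all measured genes 11.2% were called higher and 10.6% lower. Of 18 measured activation and checkpoint genes, 13 were called higher and 3 lower (median 2.39). The 3 lower were the checkpoint receptor gene Havcr2 at 0.827 against 22.3 CPM (2 against 84 UMIs), Tnfrsf25 at 63.2 against 127 CPM, and Lgals1. Pdcd1, which encodes the inhibitory receptor PD-1, was at 301 against 57.4 CPM, 5.24-fold higher (4.50 to 6.13), and Icos, which encodes a costimulatory receptor, at 308 against 141 CPM, 2.19-fold higher (1.96 to 2.45). Icos was at 161 against 181 CPM in cells with no Cd163l1 UMI. Tnfsf11, the gene of RANKL, which acts on thymic epithelium, was at 102 against 3.19 CPM, 32.0-fold higher (18.0 to 62.8), and the TNF receptor gene Tnfrsf9 (4-1BB) at 86.8 against 6.91 CPM. Among 18 cytokine receptor genes, 6 were higher and 3 lower (median -0.12), with Ifngr1 at 906 against 210 CPM, Il2rb at 140 against 25.5 CPM and Il18r1 at 263 against 597 CPM. Of 15 genes of the T cell receptor complex and its kinases, 5 were higher and none lower (median 0.33), among them the proximal kinase gene Lck at 257 against 17.02 CPM, Ptpn22 at 281 against 67.3 CPM, Cd2 and Cd5. Cd3d (1061 against 844 CPM) and Zap70 (148 against 125 CPM) were not called. Il21r lost its call among cells with 4 or more Cd163l1 UMIs, at 49.4 against 33.7 CPM.

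**Figure D4:**
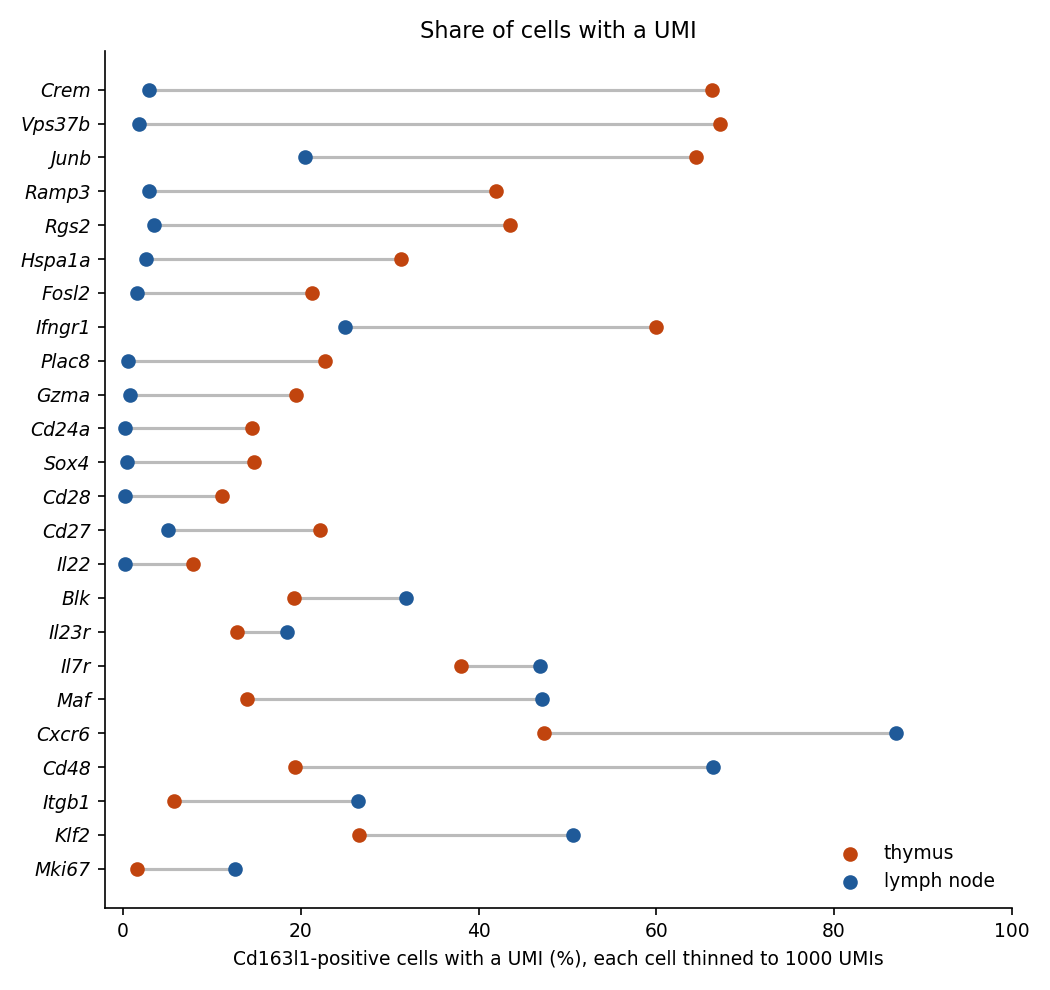
Share of Cd163l1-positive cells with at least 1 UMI of each gene (x axis, percent) in thymus (orange) and lymph node (blue) after thinning to 1000 UMIs per cell, in 873 thymus and 1217 lymph node cells. Crem and Vps37b lie at 66.3% and 67.1% in thymus against 2.96% and 1.81% in lymph node, while Gzma, Cd24a and Sox4 lie at 19.5%, 14.5% and 14.8% and so in a minority of thymus cells.

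Many genes of cell division were lower in thymus. Of 28 measured cell cycle genes, none was called higher and 21 lower (median -1.60), beside 11.2% and 10.6% over all measured genes. Leaving out the dividing cells defined below, 6 of the 18 then measured were lower (median -0.89), and without cells with 2 markers of another cell type 16 of 28 were (median -1.03). Mki67, the standard marker of dividing cells, was at 26.9 against 185 CPM, 6.89-fold lower (5.34 to 9.03), the mitotic kinase gene Plk1 at 7.44 against 55.1 CPM and the cyclin gene Ccnb1 at 21.5 against 135 CPM. Cells with at least 2 UMIs summed over 10 cycling genes made up 21.9% (19.2 to 24.8) of thymus cells and 52.2% (49.3 to 55.02) of lymph node cells, and 10.4% and 35.4% after thinning. With more Cd163l1 the organs moved apart. The share in thymus was 28.4% at 1 UMI and 18 of 150 cells at 4 or more, and in lymph node 43.6% and 70.8%, where the median depth also went from 1538.5 to 3566 UMIs. Replication histones, whose transcripts mostly lack the poly(A) tail that this assay captures, had 4 of 10 measured genes lower and 2 higher (median -0.56), with Hist1h1b at 67.4 against 535 CPM. Without the dividing cells of both organs that median was 0.47 and Hist1h2ae turned from -2.26 to 0.68 on the log2 scale.

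Among genes outside division, Cd48, Itgb1 and several galectin and annexin genes were lower in thymus. Cd48, a SLAM family ligand of leukocytes, was at 234 against 1383 CPM, 5.92-fold lower (5.43 to 6.47), and among cells with 4 or more Cd163l1 UMIs at 301 against 1371 CPM. Itgb1, the β1 integrin chain gene, was at 67.0 against 331 CPM, 4.95-fold lower (4.20 to 5.86), while the other measured integrin genes except Itgav, called higher at 25.6 against 10.4 CPM, were not called. Of 18 measured genes of the S100, annexin, galectin and lamin list, 7 were lower and 2 higher (median -0.89). Over all measured genes 10.6% were lower and 11.2% higher. The galectin gene Lgals1 was at 2035 against 6658 CPM, 3.27-fold lower (3.17 to 3.37), Lgals3 at 76.5 against 355 CPM, and Anxa1, which encodes annexin A1, at 14.9 against 83.0 CPM. Lmna, the nuclear lamin A gene, ran against them at 391 against 104 CPM.

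Survival genes were split. Of 12 measured Bcl2 family and survival genes, 3 were called higher and 5 lower (median -0.37), beside 11.2% and 10.6% over all measured genes. The death-promoting gene Bcl2l11 (BIM) was at 223 against 14.4 CPM, 15.5-fold higher (11.7 to 21.0), and Mcl1, a protective gene, at 108 against 46.5 CPM. Bcl2a1a was at 19.0 against 110 CPM, 5.79-fold lower (4.26 to 8.04), while its near-identical paralog Bcl2a1b, with which reads can be shared, was at 201 against 257 CPM and not called. Bcl2 was 2.24-fold higher (1.67 to 3.03) in all chosen cells, and its log2 ratio was -0.16 among cells with 4 or more Cd163l1 UMIs and -0.51 without dividing cells. Birc5, listed with this family, is also a mitotic gene, at 117 against 407 CPM.

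Smaller groups differed less, and their counts stand beside 11.2% called higher and 10.6% lower over all measured genes. Of 18 measured interferon response genes, 7 were higher and none lower (median 0.65), with Irf7 at 119 against 22.3 CPM and Isg15 at 162 against 43.6 CPM. That median was -0.12 after thinning and -0.19 without dividing cells, so its sign rested on the setting. Of 6 measured GIMAP genes, small GTPases of lymphocyte survival, 3 were higher (median 0.97). Without dividing cells 2 of them were higher and 2 lower (median 0.41). With at least 4 Cd163l1 UMIs the GIMAP median was 0.15, and after thinning with at least 2 it was 0.14. Of 6 Ly6 and Ms4a genes 2 were higher (median 0.45), with Ly6a (Sca-1) at 232 CPM in thymus cells with 1 Cd163l1 UMI and 1160 CPM in those with 4 or more. Of 16 glycolysis and hypoxia genes, the hypoxia-linked genes Hilpda (186 against 19.7 CPM), Hk2, Egln3 and Hif1a were higher and none lower (median 0.09). Of 7 lipid genes, 2 were higher and 1 lower (median 0.38), with the lipid droplet gene Plin2 at 135 against 26.9 CPM. Of 15 ER stress genes, 2 were higher and 1 lower (median -0.35), near the shares over all measured genes. None of the 14 measured MHC class I and processing genes was called in either direction (median -0.09), with B2m at 4529 against 4152 CPM.

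MHC class II genes, which γδ T cells of the mouse do not make in quantity, marked the lymph node cells. Cd74, the invariant chain gene, named after its value was seen, was at 957 CPM in lymph node and 68.6 CPM in thymus, 13.9-fold lower in thymus (11.9 to 16.4), and H2-Aa at 134 against 9.09 CPM. Dendritic and monocyte markers summed to 1872 and 376 CPM, with 5 of 6 measured members called lower in thymus, while the defining genes Csf1r and Itgax were at 0 in lymph node and Flt3 at 1 UMI. B cell markers summed to 106 and 28.1 CPM, nearly all Cd79b, and erythroid genes to 32.7 and 1.24 CPM. Fibroblast and endothelium markers summed to 37.5 CPM in lymph node and 32.7 CPM in thymus, nearly all Pecam1. In lymph node, Cd74 was at 1114 CPM (1075 to 1154) in 635 dividing cells, 73.1% of which had a UMI, and 520 CPM (476 to 567) in 582 others, at median depths of 3180 and 1524 UMIs. The part of other cells or of free RNA in the genes lower in thymus was not tested. Leaving out the 54.9% of lymph node and 12.03% of thymus cells that held UMIs of 2 or more markers of another cell type gave 593 genes higher and 683 lower.

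The same comparison in the cells outside the choice gives values on either side of the Cd163l1 limit. Among 1636 thymus and 241 lymph node cells with no Cd163l1 UMI, 697 of 5908 genes were higher (11.8%) and 801 lower (13.6%). Of the genes called in the chosen cells, 438 of the 630 higher and 342 of the 597 lower were also called in the same direction there, and 2 turned. Among cells with 4 or more Cd163l1 UMIs, 436 of the 630 and 408 of the 597 were also called and none turned. These sets share their organs and libraries, so the overlap is a description. Crem stood at 1299 against 76.0 CPM in cells with no Cd163l1 UMI, Gzma at 698 against 31.3 CPM, Cxcr6 at 164 against 2354 CPM and Maf at 47.1 against 552 CPM.

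Ear skin cells chosen in the same way show which thymus genes recur in another organ. In 385 skin cells with 477909 UMIs, Crem was at 1203 CPM and Vps37b at 1177 CPM, near the thymus levels, Hspa1a at 809 CPM, Junb at 3166 CPM and Ramp3 at 949 CPM. Gzma was at 4.19 CPM, Cd24a and Sox4 at 2.10 CPM each, and Cd28, Plac8 and Ccr9 at 0, which allows up to 6.29 CPM, so these lay nearer to lymph node than to thymus. Il22 was at 214 CPM, Il17a at 706 CPM and Il17f at 1374 CPM. Hspb1, at 4.19 CPM in skin, did not follow Hspa1a. Both skin and thymus had a stated step at 37 °C, of 75 and 30 minutes, so organ and handling cannot be told apart for the genes they share. The 1346 chosen cells of the pool had Crem at 868 CPM, Vps37b at 1349 CPM and Gzma at 93.3 CPM.

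**Figure D5:**
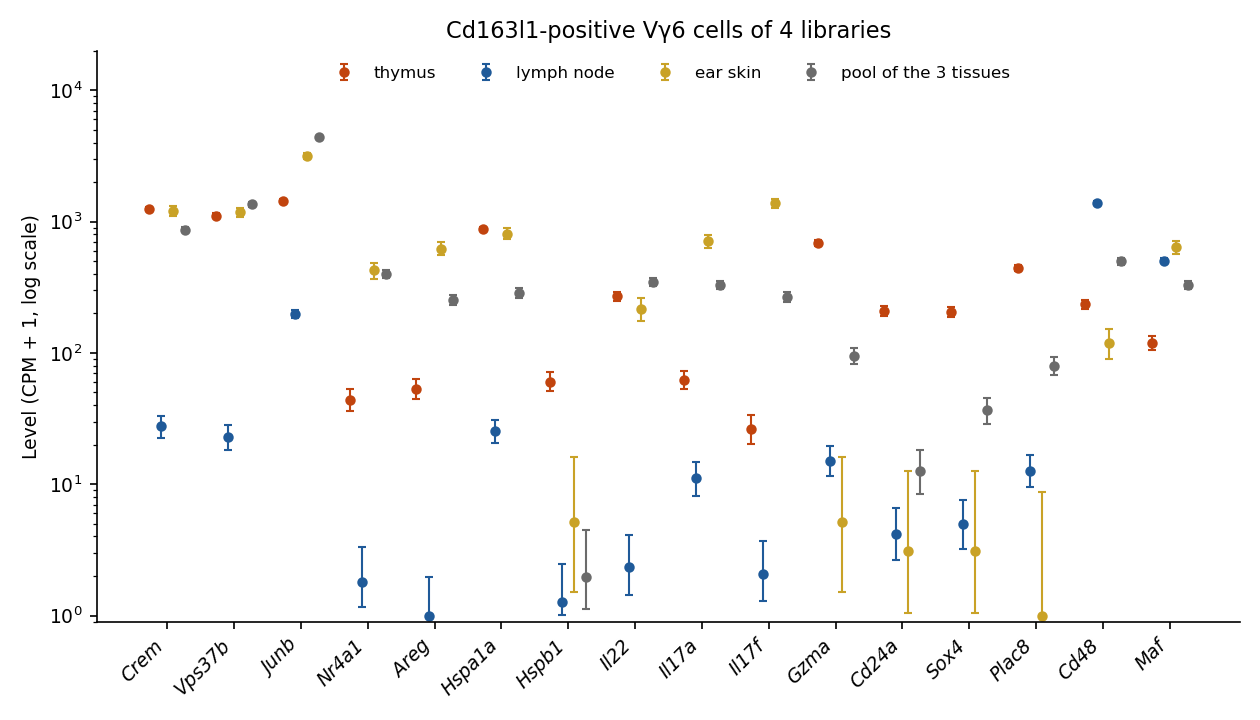
Levels (y axis, CPM plus 1, log scale) of 16 genes (x axis) in Cd163l1-positive Vγ6 cells of thymus, lymph node, ear skin and the pool of the 3 tissues, with exact Poisson 95% intervals. Crem and Vps37b are near 1000 CPM in thymus and skin and below 30 CPM in lymph node, while Gzma, Cd24a, Sox4 and Plac8 are high in thymus and below 15 CPM in lymph node and skin.

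The authors' deposited table of mean expression in 8 Vγ6 clusters, whose columns each sum to 10000, separates clusters within the thymus. In the authors' deposited table, Cd163l1 was at 11.02 in the cluster Thy_2 and at most 0.727 in the other 4 thymus clusters, beside 10.7 in pLN_1. In that authors' deposited table, Gzma was at 0.983 in Thy_2 against 24.8 in Thy_5, and Sox4 at 0.366 against 4.97 in Thy_1. Crem in the authors' deposited table was at 13.7 in Thy_2, between 8.75 and 16.3 in all thymus clusters, and 0.424 in pLN_1. Il22 was at 4.91 in Thy_2 and 0.0129 in pLN_1 of the authors' deposited table, and Maf at 1.92 and 7.001.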

How the data were processed

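The labels name the 10x Chromium 3' v2 chemistry for all 5 libraries. The submitters' processing notes name Cell Ranger 2.0, Seurat 2.3 and build mm10, without roles. The deposited matrices hold raw UMI counts of 27998 genes per barcode. The authors' deposited cluster means are in another unit, and each column sums to 10000. Members and gene lists were chosen with earlier results of these data known.

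For each library, UMIs were added over the chosen cells and scaled to CPM, leaving out Cd163l1. Named genes were the 12 highest and 12 lowest ratios (ranked by the interval bound nearest to 1, with a UMI in at least 20% of cells and 100 CPM in the higher library, without mitochondrial, ribosomal protein and other-cell marker genes), up to 4 called members of each of 27 gene lists, and a fixed set, some of which are not reported here. Further list members, and Calca, Cpa3, Cdkn1a, Cebpb and Cd74, were named after their values were seen. List medians use a pseudocount of 1 CPM. Intervals are at 95%, and a count of 0 is bounded by 3 counts. The script was tested on simulated counts. Doublets were not removed in the main values: Scrublet marked 6 thymus and 1 lymph node cells of those chosen, too few to tell how many there were. Another 9 marker lists covered other cell types. The alternatives tried were 15 planned settings and 2 added after seeing the data (at least 4 Cd163l1 UMIs, and at least 2 after thinning). Gene positions are from GENCODE M21 and promoters from RefSeq. Python 3.11.15, numpy 2.4.6, scipy 1.17.1, pandas 2.3.3, scanpy 1.11.5, R 4.3.3 and edgeR 4.0.16 (TMM factors only) were used.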

Additional observations from a re-analysis of the deposited data

Results flagged for a closer look

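Among genes called in the chosen cells, 2 were called the opposite way in cells with no Cd163l1 UMI, and the difference was not tested. Pxdc1 had a log2 ratio of 2.00 in chosen cells, at 144 CPM in thymus and 35.1 CPM in lymph node, and -1.11 in the others, at 25.3 and 55.9 CPM. Slc15a3, which encodes a lysosomal peptide and histidine transporter, had a log2 ratio of 1.57 in chosen cells, at 47.1 and 15.2 CPM, and -1.36 in the others, at 12.4 and 33.5 CPM. The lymph node values without Cd163l1 rest on 25 and 15 UMIs.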

How the results depend on the processing

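With no CPM minimum, 1482 genes were higher and 1152 lower, and with at least 50 CPM 354 and 308. Under the other settings the counts were within 1.5 times the main ones, from 486 to 679 higher and from 490 to 858 lower. Of 111 called named genes, 76 kept their call under all 15 settings run on genes (60 higher, 16 lower). The interferon list median was -0.12 after thinning, -0.19 without dividing cells, -0.12 without cells with 2 markers of another cell type and -0.12 after thinning with at least 2 Cd163l1 UMIs. The cell cycle list median was -0.89 without dividing cells and -2.71 with at least 4 Cd163l1 UMIs (main -1.60). The histone list median was 0.47 without dividing cells and 0.22 without cells with 2 markers of another type. Bcl2 was at -0.51 without dividing cells, -0.16 with at least 4 Cd163l1 UMIs and -1.11 after thinning with at least 2, Hist1h2ae at 0.68 without dividing cells, Hist1h2bc at -0.34 after thinning with at least 2, and Scd2 at -0.10 with at least 4. Fewer cells remained in each of these, and the cause was not tested otherwise. The calls of Cxcr6 (-0.89) and Ccr6 (-0.88) ended with at least 2 Cd163l1 UMIs, and those of Klf2 (-0.96) and Sdf2l1 (-0.97) with TMM factors. No paired analysis was possible because each group was 1 library, and for the same reason no replicate could be left out. Genes under 20 CPM, or at 1 to 3 UMIs in a library, are limited by depth.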
